A study of Mus musculus with 18 samples.

Results

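The genes described here are the 3 PDGF ligand genes Pdgfa, Pdgfb and Pdgfc and the 2 PDGF receptor genes Pdgfra and Pdgfrb, chosen by name from the 20275 genes of the deposited count matrix, which held all 5. They were followed in bone marrow of C57B6/J mice at E16.5, E18.5, postnatal day 0 (P0) and adulthood. Hematopoietic progenitor cells, here HP, were sorted as CD45+ Lineage- Kit+ cells, and stroma was sorted as CD45- Ter119- cells. The labels name no engineered allele or treatment and give no age for the adults. Each library was a pool of mice: 4 stromal and 5 HP libraries, 1 per stage and compartment except E16.5 HP, which had 2 that the labels do not tie to separate animals. Perinatal cells came from the whole skeleton, in fetuses without the head, whereas adult cells came from limb bones, pelvis and spine, so that stage and the bones sampled cannot be told apart. The same cells carried counts for 29 barcoded antibodies (CITE-Seq), among them one to CD140a, the protein made from Pdgfra.

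PDGFs are dimeric growth factors that act through 2 receptor tyrosine kinases. The α receptor responds to A, B and C chains, and the β receptor mainly to B and D chains. In many tissues PDGF-B from endothelium recruits and retains pericytes that carry the β receptor, while the α receptor marks fibroblasts and other mesenchymal cells, including most marrow stromal progenitors. PDGF-C is secreted in a latent form and is activated by proteases such as tissue plasminogen activator. In GRCm38 coordinates Pdgfa lies at chr5:138976014-138997370 and Pdgfb at chr15:79995874-80014977 on the minus strand. Pdgfc at chr3:81036416-81214040, Pdgfra at chr5:75152292-75198215 and Pdgfrb at chr18:61045150-61085061 lie on the plus strand. Pdgfa, Pdgfc and Pdgfra each overlap an annotated antisense gene that has its own row in the matrix.

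The matrix held 56201 cells in 140 deposited clusters, 35219 of them stromal and 20982 HP. Library totals ran from 13.97 to 194.9 in units of 1000000 unique molecular identifiers (UMIs, counts of single captured transcripts), and the median per cell from 6747 in Adult HP to 23291.5 in E16.5 HP 1. Ptprc, which encodes CD45, had 1 to 11 UMIs in each stromal library and 79.3 to 163 UMIs per 1000000 (CPM) in the HP libraries. Col1a1, a collagen of connective tissue, reached 1839 to 6383 CPM in stroma and at most 1.74 CPM in HP. The paper took contaminating blood cells out of its stromal data and reports more stromal cells at each stage than the matrix held. Low Ptprc in stroma is therefore no check of the sort, and the stroma compared here may lack blood cells that were sorted with it. Of 54831 cell barcodes, 1102 occurred in more than 1 library. Most of these were shared between E16.5 HP 1, E18.5 HP, P0 HP and Adult HP, and 694 of the 5985 Adult HP cells had more UMIs under the same barcode elsewhere. Without such cells the Pdgfrb level was 6.47 CPM in Adult HP, against 6.54 with them, and the other 4 HP libraries kept their Pdgfrb values to 3 digits.

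Deposited clusters carry codes, and a cluster is called "-like" only where a marker list without any PDGF gene ranked first. By that rule, with further limits given below and the option of leaving a cluster unnamed by hand, 50 of the 66 stromal clusters and 55 of the 74 HP clusters were named. Levels are CPM of the UMIs summed over the cells of a library, class or cluster, followed in parentheses by exact Poisson 95% intervals, whose width reflects counting alone. Reads were counted from transcript 3′ ends, so levels were compared within a gene and not between genes. In pooled cells, fewer cells of a type and less RNA per cell cannot be told apart.

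Of the 5 genes, 4 were higher in stroma than in HP. Pdgfa stood at 63.4 CPM in E16.5, 42.4 in E18.5, 50.8 in P0 and 89.7 in Adult stroma, and at 3.29 and 1.87 in the 2 E16.5 HP libraries, 2.50 in E18.5, 1.83 in P0 and 0.524 in Adult HP. The groups did not overlap, though the share of all genes without such overlap was not computed. The edgeR quasi-likelihood test gave a log2 difference of 5.18 (SE 0.515, adjusted p = 0.000267). Pdgfc stood at 12.0, 14.5, 17.6 and 21.9 CPM in stroma in order of stage and at 0.0417 to 0.154 CPM in HP, where no library held more than 10 UMIs, and its log2 difference was 7.60 (SE 0.358, adjusted p = 1.77e-05). Pdgfra stood at 54.5, 55.8, 75.5 and 94.4 CPM in stroma. In HP it had 1.65 CPM in E16.5 HP 1 and 0.0338 to 0.118 CPM in the other 4 libraries, and its log2 difference was 8.77 (SE 1.14, adjusted p = 0.000813).

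Pdgfrb differed less between compartments. It stood at 22.8 CPM in E16.5, 25.7 in E18.5, 34.4 in P0 and 67.9 in Adult stroma, and at 17.7 and 28.2 in the E16.5 HP libraries, 10.4 in E18.5, 12.1 in P0 and 6.54 in Adult HP. One HP library lay inside the stromal range. The log2 difference was 1.52 (SE 0.518, adjusted p = 0.0393 by edgeR). With stage as covariate, leaving out either library of E18.5, P0 or Adult takes that stage out of the comparison. Both omissions of such a stage are thus nearly the same check. The call was lost when any of 7 libraries was left out: adjusted p by edgeR became 0.102 without E18.5 stroma, 0.119 without P0 stroma, 0.0781 without Adult stroma, 0.0694 without E16.5 HP 1, 0.108 without E18.5 HP, 0.120 without P0 HP and 0.0792 without Adult HP.

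Pdgfb stood at 2.19 CPM in E16.5, 2.22 in E18.5, 2.41 in P0 and 11.2 in Adult stroma, and at 7.16, 0.501, 5.64, 2.19 and 0.676 CPM in the HP libraries in the same order as above. The groups overlapped and the log2 difference was 0.29 (SE 1.10, adjusted p = 0.838 by edgeR). It turned to -0.51 without Adult stroma and to -0.53 without Adult HP, which are nearly the same check. Over all 18407 genes tested, 32.0% were called higher and 25.8% lower in stroma, so that a count of 4 higher members among 5 stands against a background in which a call was common.

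**Figure D1:**
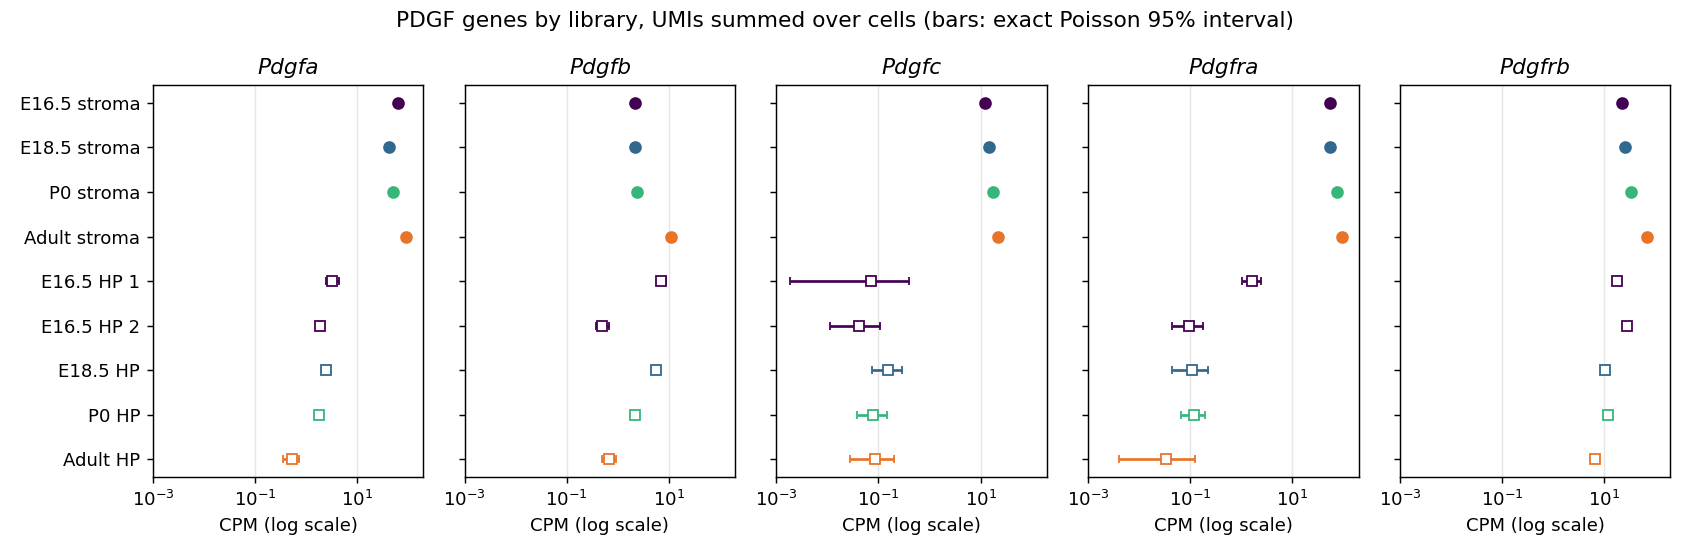
CPM (log axis) of each PDGF gene in the 9 libraries, filled circles for stroma and open squares for HP, with exact Poisson 95% intervals where they exceed the symbol. Pdgfa, Pdgfc and Pdgfra do not overlap between the compartments, and the share of all genes that do not was not computed. Pdgfrb lies between 6.54 and 67.9 CPM throughout, and Pdgfb in Adult stroma (11.2 CPM) stands above the 3 perinatal stromal libraries.

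With 1 stromal library per stage there is no test between stromal stages, and a fold of 2 or more was used as a rule of size. The shares of genes given beside it cover genes with at least 10 CPM at either stage, a limit that Pdgfb did not reach perinatally. From E16.5 to E18.5 the ratios ran from 0.669 for Pdgfa to 1.21 for Pdgfc. None of the 5 passed 2-fold, as 2.53% of 7994 genes did. From E18.5 to P0 they ran from 1.08 for Pdgfb to 1.35 for Pdgfra, and again none passed, against 0.742% of 7951 genes. From P0 to Adult all 5 ratios were above 1: 1.77 for Pdgfa, 4.65 (4.16-5.20) for Pdgfb, 1.24 for Pdgfc, 1.25 for Pdgfra and 1.97 (1.90-2.04) for Pdgfrb. The 1 member past 2-fold, Pdgfb, compares with 19.6% of 8768 genes at that step. With the mean of per-cell CPM, 3 members passed: Pdgfa at 2.20-fold, Pdgfb at 8.08-fold and Pdgfrb at 2.58-fold. The share of all genes was not computed for that measure, nor for ratios above 1, so these counts have no background to be read against.

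Pdgfa, the A chain ligand, exceeded 10 CPM in 60 of the 66 stromal clusters, with a median of 38.5 CPM. Muscle-related and nerve-associated cells led. In skeletal muscle-like cells it stood, in order of stage, at 260 (252-268), 260 (245-275), 192 (185-200) and 181 CPM (153-214). Schwann-like cells, the glia of peripheral nerve, had 208 (189-230), 207 (179-239) and 251 (230-273) CPM at the 3 perinatal stages and no adult cluster was named so. These levels stayed within 1.5-fold of each other. Those in the mural and connective tissue classes were higher at later stages, but different clusters made up these classes, as given below.

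Pericyte or smooth muscle-like cells, the contractile cells of vessel walls, had 82.0 CPM (73.2-91.6) of Pdgfa in E16.5 cluster F4, 178 (160-198) in E18.5 P2, 203 (188-218) in P0 P2 and 405 (375-437) in Adult P4. The last was the highest cluster level of the gene. Tendon-like cells had 47.7, 50.8, 78.1 and 154 CPM in order of stage, fibroblast-like cells 9.00, 16.5, 26.0 and 47.6, and chondrocyte-like cells 20.2, 24.6, 26.1 and 56.8. The fibroblast-like class held clusters F1, F3 and F6 at E16.5, F3i and F3ii at E18.5, F7 at P0 and F8 in the adult, while P0 F3i and F3ii stayed unnamed, so that its levels come from different clusters at each stage. The tendon-like class likewise was F5 at E16.5, F2 at E18.5 and F5 at P0, where F2 stayed unnamed, and F10, F11 and F12 in the adult. P0 chondrocyte-like cells included C2i and C2ii, whereas C2 of E16.5 and C2i and C2ii of E18.5 stayed unnamed. Adult chondrocyte-like cells included F9, led by Msmp, Cytl1 and Prg4, in which Pdgfa stood at 88.1 CPM, against 25.0 to 55.9 in C9, C10 and C11. Hypertrophic chondrocyte-like cells, which make the matrix that bone replaces, had 74.0, 53.1 and 77.5 CPM at the perinatal stages. Among adult cells, osteoblast lineage-like cells had 143 CPM (133-153) and CAR-like cells, the Cxcl12-abundant reticular cells of the marrow niche, 109 (97.8-122).

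The classes that held the largest shares of Pdgfa transcripts differed by stage. Skeletal muscle-like cells held 53.3%, 23.5%, 23.9% and 1.71% of the stromal Pdgfa UMIs from E16.5 to adulthood. Chondrocyte-like cells held 9.84%, 28.8%, 22.1% and 29.7%, the largest share at E18.5, and hypertrophic chondrocyte-like cells 14.3%, 13.8% and 22.0% perinatally. Tendon-like cells held 2.29% at E16.5 and 32.8% in the adult. The number of skeletal muscle-like cells in these libraries was 945, 264, 730 and 122 in order of stage, which is 11.5%, 3.97%, 5.18% and 1.95% of stromal cells. The part of these numbers in the shares was not tested.

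Pdgfb, the ligand that endothelium supplies to pericytes, had its highest class level in endothelial-like cells at every stage. Their level was 78.1 CPM (60.7-99.1) in 71 E16.5 cells, 176 (151-205) in 94 E18.5 cells, 132 (118-147) in 223 P0 cells and 217 (203-231) in 594 adult cells. The adult value was 1.64-fold (1.45-1.87) that at P0, a smaller ratio than the 4.65 of whole stroma. Endothelial-like cells were 0.863%, 1.42%, 1.58% and 9.48% of stromal cells in order of stage, while the library level was 2.19, 2.22, 2.41 and 11.2 CPM, and the part of this share in the library level was not tested. They held 26.6%, 66.4% and 68.7% of stromal Pdgfb UMIs perinatally and 89.8% in adult stroma.

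Adult endothelium was deposited as an arterial and a sinusoidal cluster. Pdgfb stood at 274 CPM (254-296) in the arterial cluster AECs and at 142 (125-160) in the sinusoidal cluster SECs. After each cell was thinned to 1000 UMIs, 23.1% (exact binomial interval 19.0-27.7) of AECs and 12.4% (8.09-17.8) of SECs had a Pdgfb UMI. In chondrocyte-like cells, a cell type not known for the ligand, this share was at most 0.0202%.

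Outside endothelium, Pdgfb reached 23.9, 20.8 and 23.3 CPM in Schwann-like cells at the 3 perinatal stages. Pericyte or smooth muscle-like cells had 3.41, 14.2, 7.70 and 22.2 CPM in order of stage and skeletal muscle-like cells 8.09, 5.56, 3.25 and 14.1. These cells held much of the small E16.5 total: 48.0% of its 256 UMIs came from skeletal muscle-like and 18.4% from Schwann-like cells. Fibroblast-like cells stayed at or below 0.894 CPM and CAR-like cells had 1.67 CPM (0.541-3.89) from 5 UMIs.

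Pdgfc, the ligand secreted in latent form, had no single source: it exceeded 10 CPM in 42 of 66 stromal clusters and 100 CPM in none. Adult tendon-like cluster F10 had the highest level, 53.0 CPM (48.8-57.5), and adult osteoblast lineage-like cells had 50.6 (44.9-56.9). Tendon-like cells as a class stood at 15.2, 18.5, 15.7 and 46.5 CPM in order of stage, each from other clusters, and the unnamed P0 F2 had 19.2. Fibroblast-like cells stood at 3.90, 5.86, 15.6 and 25.2 CPM. The P0 value is that of F7, and the unnamed P0 clusters F3i and F3ii had 2.52 and 13.8 CPM.

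In 3 classes the adult level was under 0.5 of that at P0. Chondrocyte-like cells had 14.0, 15.9 and 21.4 CPM of Pdgfc at the perinatal stages and 9.68 (8.77-10.7) in the adult, where F9 had 27.2 and C9, C10 and C11 had 1.23 to 3.84. Skeletal muscle-like cells had 16.7, 20.9 and 27.9 CPM and then 6.43 (2.09-15.0), the last from 5 UMIs. Endothelial-like cells were at 1.15, 1.06, 9.42 and 3.76 CPM, with 1 UMI behind each of the first 2 values and a ratio of 0.399 (0.197-0.788) for the last step.

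**Figure D2:**
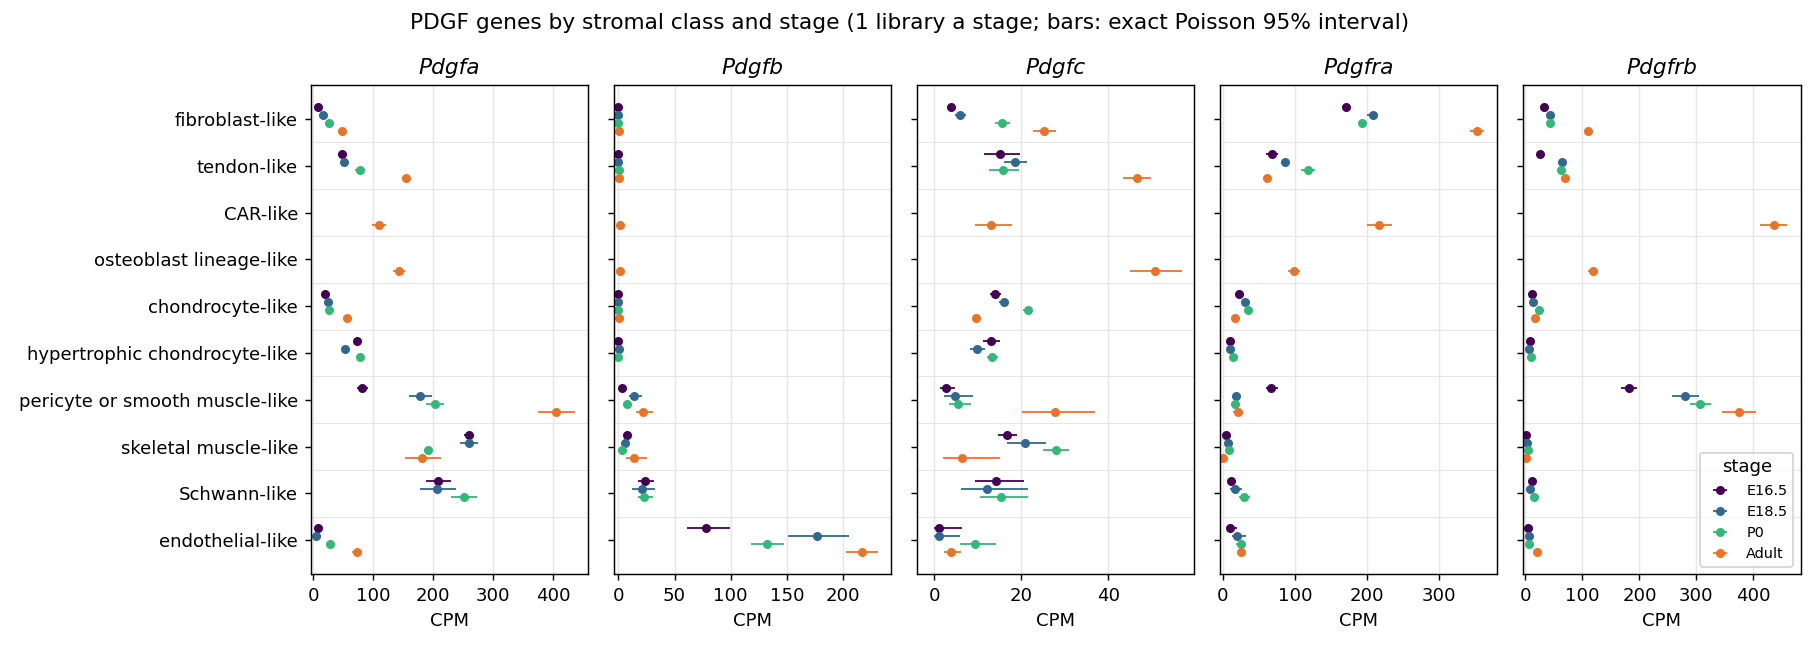
CPM of the PDGF genes (one panel a gene, each with its own linear axis) in the stromal classes, coloured by stage, with exact Poisson 95% intervals. Pdgfb lies with endothelial-like cells, Pdgfra with fibroblast-like and adult CAR-like cells, and Pdgfrb with pericyte or smooth muscle-like and adult CAR-like cells.

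Pdgfra, the α receptor, was highest in fibroblast-like cells: 170 (165-176), 208 (200-215) and 194 CPM (188-200) at the 3 perinatal stages and 353 (343-363) in adult cluster F8. The adult level was 1.82-fold that of P0 F7, and this ratio depends on the clusters named, since P0 F3i and F3ii had 308 and 154 CPM. CAR-like cells followed among adult cells with 217 CPM (201-234), and osteoblast lineage-like cells had 98.0 (90.0-107). A pair of unnamed clusters were near the top of the order, Adult F13 with 318 CPM (288-350) in 70 cells and P0 F3i with 308 (298-317) in 930 cells. The interval of F13 overlaps those of P0 F3i and of F8, while F8 lies above P0 F3i. Unnamed clusters held 43.9% of the P0 Pdgfra UMIs, and fibroblast-like cells held 55.5%, 47.5%, 27.5% and 59.2% in order of stage.

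Tendon-like cells had 67.9, 85.6 and 118 CPM of Pdgfra before adulthood and 61.6 in the adult, and the unnamed P0 F2 had 89.5. Chondrocyte-like cells had 22.7, 30.5, 34.6 and 16.1 CPM. The perinatal values depend on the clusters named. C2i (66.4) and C2ii (19.0) were in the class at P0, while E16.5 C2 (36.2) and E18.5 C2i (53.2) and C2ii (31.6) stayed unnamed. The adult value came mostly from F9, at 42.1 CPM, while C9, C10 and C11 had 8.61, 2.11 and 7.15. In pericyte or smooth muscle-like cells the gene stood at 67.1 CPM (59.1-75.8) in E16.5 F4, 18.4 (12.8-25.6) in E18.5 P2, 16.3 in P0 P2 and 20.4 in Adult P4. Skeletal muscle-like cells had 3.68 to 8.53 CPM perinatally and 0 UMIs in 122 adult cells, which allows up to 4.74 CPM. Endothelial-like cells were at 10.3, 20.2, 24.6 and 24.6 CPM.

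Pdgfrb, the β receptor, was highest in adult CAR-like cells at 436 CPM (412-460), with a UMI in 38.7% (33.7-44.0) of cells thinned to 1000 UMIs. Pericyte or smooth muscle-like cells came next: 182 CPM (169-196) in E16.5 F4, 280 (257-305) in E18.5 P2, 307 (289-326) in P0 P2 and 374 (345-405) in Adult P4. The E18.5 and P0 intervals overlap, and the other neighbouring levels do not. E16.5 F4 also had more Pdgfra than the later clusters, as given above, so the step from E16.5 to E18.5 may compare unlike cells. In skeletal muscle-like cells, where the gene stood at 1.29 to 4.71 CPM, at most 0.413% of thinned cells had a UMI.

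The connective tissue classes carried Pdgfrb at lower levels. Fibroblast-like cells had 32.6, 42.6 and 43.3 CPM perinatally and 110 (104-115) in the adult, 2.53-fold (2.33-2.75) the P0 level. Tendon-like cells had 26.1 CPM at E16.5 and 64.0, 61.8 and 70.0 afterwards, in the different clusters named above, and the unnamed P0 F2 had 79.6. Adult osteoblast lineage-like cells had 118 CPM (110-128). Chondrocyte-like cells, the named stromal class with the most cells, had 11.8, 13.6, 24.4 and 16.0 CPM in order of stage. Their share of stromal Pdgfrb UMIs is not listed below. At E18.5 and P0 it was larger than that of pericyte or smooth muscle-like or of fibroblast-like cells. Pericyte or smooth muscle-like cells held 26.0%, 18.4%, 16.0% and 9.99% of stromal Pdgfrb UMIs in order of stage. Fibroblast-like cells held 13.5% to 25.6%, and CAR-like cells 21.0% in the adult. None of the classes listed here held most of the transcript.

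The classes thus differed in which receptor they carried. E18.5, P0 and Adult mural cells combined high Pdgfrb with Pdgfra at 16.3 to 20.4 CPM, and E16.5 F4 and adult CAR-like cells held transcripts of both as populations. Across the 65 stromal clusters of at least 50 cells, Pearson's r of the log2(CPM + 10) levels was 0.545 for the 2 receptors. It was 0.406 for Pdgfa with Pdgfc, -0.336 for Pdgfa with Pdgfra and -0.297 for Pdgfb with Pdgfra. Clusters of a stage share a library, so these are descriptions. In single adult CAR-like cells thinned to 1000 UMIs, both receptors were detected in 27 of 359, 7.52% (5.01-10.8), against 7.33% from the product of the separate shares. In adult fibroblast-like cells it was 2.85% against 2.64%. In E16.5 F4, 21 of 290 thinned cells had Pdgfra and 43 had Pdgfrb, and 0 had both, which has an upper exact limit of 1.26% and so includes the 1.07% from the product.

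**Figure D3:**
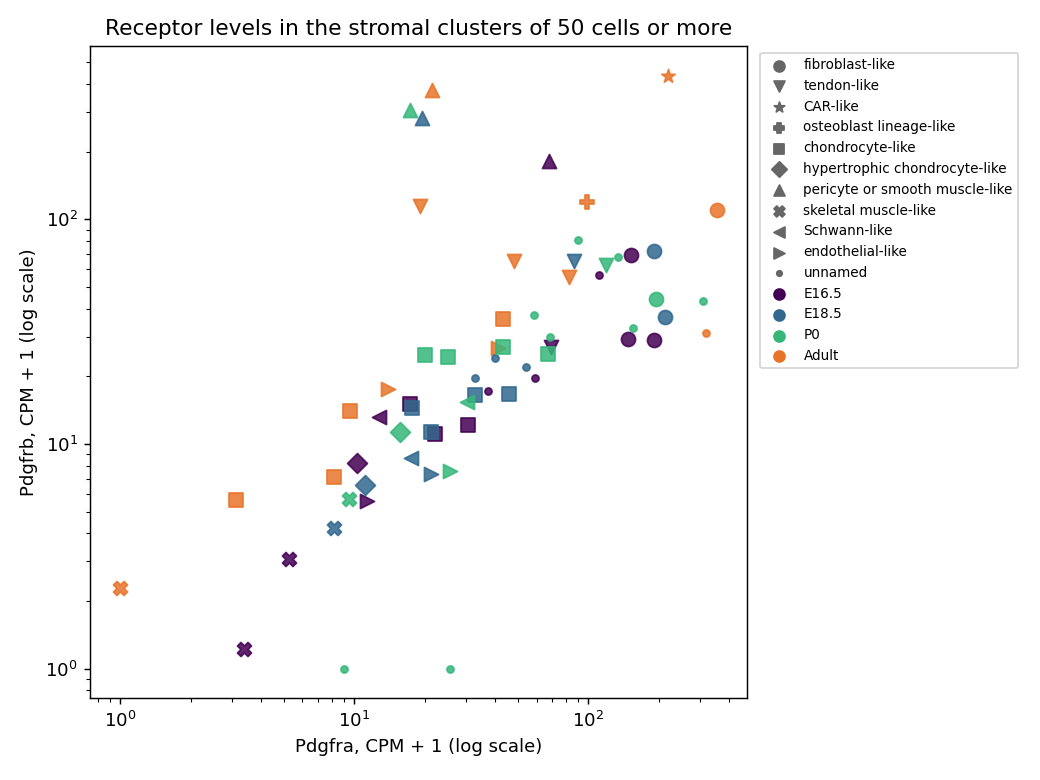
Pdgfra against Pdgfrb in the stromal clusters of at least 50 cells, both as CPM + 1 on log axes, coloured by stage with a symbol per class. The triangles of pericyte or smooth muscle-like clusters lie at 182 to 374 CPM of Pdgfrb, the circles of fibroblast-like clusters lie to the right, and the star of adult CAR-like cells (217 and 436 CPM) lies at the upper right.

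By a rule of likeness, the 3 genes with the highest Pearson's r across those 65 clusters were named for each member, among 4617 genes that reached 100 CPM in some cluster. For Pdgfb they were Ptprb, an endothelial phosphatase (0.942), Cd36, a fatty acid receptor (0.930), and Afap1l1 (0.929). For Pdgfrb they were Ednra, the endothelin A receptor of smooth muscle (0.893), Slit3 (0.835) and Lhfp (0.822). For Pdgfra they were Cped1 (0.789), Zfp503 (0.783) and Ghr, the growth hormone receptor (0.765). The closest genes to Pdgfa were Cryab (0.734), Tagln, a smooth muscle protein (0.711), and Pla2g16 (0.710), and those to Pdgfc were Ptgis, prostacyclin synthase (0.666), Cpq (0.643) and Cpxm2 (0.633).

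The CD140a antibody allowed the α receptor to be read as protein in the same stromal cells. The counts of this antibody were put on a centred log ratio scale, library by library, and a value over 1 made a cell positive. By stage, 27.5% (26.6-28.5), 14.3%, 16.6% (15.9-17.2) and 18.6% (17.7-19.6) of stromal cells were positive. Counts were low, with medians of 3, 1, 3 and 4 a cell, and the lowest positive count was 10, 4, 7 and 10, so that the bar differed between libraries and these shares give no order of stages. The antibody counts did not enter the RNA clusters.

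Pdgfra transcript was higher in positive cells in all 4 libraries. In positive cells it stood at 141, 163, 187 and 183 CPM in order of stage, and in negative cells at 25.8, 38.8, 48.7 and 72.1. The ratios were 5.46 (5.18-5.75), 4.19 (3.99-4.41), 3.84 (3.72-3.97) and 2.53 (2.43-2.65), with a geometric mean of 3.86 (SD of the log2 ratio 0.459, 4 libraries). The two-sided exact sign-flip permutation test over libraries gave p = 0.13, from 2 of 16 sign patterns, the smallest that 4 libraries allow. The median total of all 29 antibodies, which includes CD140a, was also higher in positive than in negative cells. It was 87.5 against 32, 112 against 20, 108 against 37 and 200 against 48 in order of stage. Some of this difference follows from the split itself, and the part of the total in the ratios was not tested.

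Ratios of the other members were taken over the same split. Pdgfrb ratios were 2.28, 2.12, 1.46 and 1.14 in order of stage, above 1 in 4 of 4 libraries (geometric mean 1.68). Pdgfa ratios were 0.331, 0.668, 0.541 and 0.791, below 1 in all 4 (geometric mean 0.555), and Pdgfb ratios of 0.148, 0.155, 0.821 and 0.665 were below 1 as well. At an antibody level of 0.75, Pdgfb was above 1 in 1 of 4 libraries (exact permutation p = 0.25), and its geometric mean of 0.334 ran from 0.189 to 0.453 over the alternatives. For Pdgfrb, Pdgfa and Pdgfb the same exact test gave p = 0.13, its smallest value. Pdgfc ratios were 0.491, 0.519 and 0.557 perinatally but 1.44 (1.31-1.60) in the adult, and the exact permutation p was 0.25.

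Among named classes, fibroblast-like and tendon-like cells had the highest positive shares. Of fibroblast-like cells 82.5%, 67.1%, 50.5% and 47.1% were positive in order of stage, and of tendon-like cells 62.8%, 26.3%, 44.3% and 21.1%. Chondrocyte-like cells were positive in 2.17% to 5.42%. Pericyte or smooth muscle-like cells were positive in 39.3% (33.7-45.2) of E16.5 F4, 14.5% of E18.5 P2, 9.35% (6.02-13.7) of P0 P2 and 16.5% (11.2-22.9) of Adult P4 cells.

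Adult CAR-like cells did not follow the order by transcript: they had 217 CPM of Pdgfra, and 3.90% (2.15-6.46) of them were antibody-positive. Adult F13, with 318 CPM, was positive in 90.0% (80.5-95.9) of its 70 cells, and adult F8, with 353 CPM, in 47.1%. The median total of all 29 antibodies, CD140a included, was 38 in CARs, 228.5 in F13 and 113 in F8, and its part in these shares was not tested. Across clusters of at least 50 cells, Pearson's r of the positive share with Pdgfra CPM was, in order of stage, 0.907 over 16 clusters, 0.811 over 15, 0.818 over 19 and 0.644 over 15. Spearman's rho was 0.829, 0.104, 0.620 and 0.554, and the clusters of a stage share a library. The P0 clusters include UD2 (387 cells) and UD3 (129 cells), whose median total over all 29 antibodies was 0 and in which no cell was positive. Their cells also count as CD140a-negative in the P0 shares and ratios above.

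**Figure D4:**
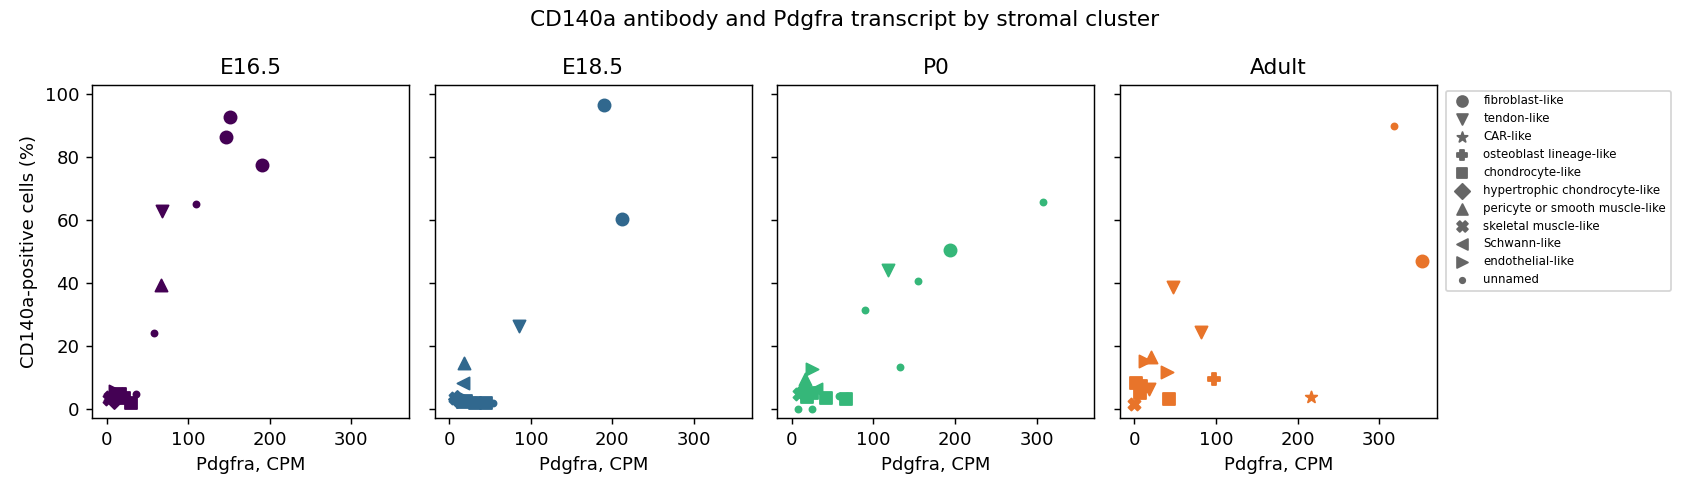
Share of CD140a-positive cells (%) against Pdgfra CPM in the stromal clusters of at least 50 cells, one panel a stage and one symbol a class. Fibroblast-like circles lie at the upper right of the E16.5 and E18.5 panels. In the P0 panel the unnamed F3i (308 CPM, 65.8%) lies above and to the right of fibroblast-like F7 (194 CPM, 50.5%). In the adult panel the star of CAR-like cells lies at 217 CPM and 3.90%.

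Within fibroblast-like cells the positive over negative ratio of Pdgfra CPM was 1.03 (0.935-1.13), 1.02 (0.946-1.11), 1.49 (1.40-1.59) and 0.830 (0.785-0.877) in order of stage. Within pericyte or smooth muscle-like cells it was 2.98 (2.29-3.91) in E16.5 F4, 1.55 (0.722-3.03) in P0 P2 and 6.19 (2.85-14.5) in Adult P4. Tendon-like cells had ratios of 2.33, 1.54, 1.34 and 1.42, and adult endothelial-like cells 6.74 (4.48-10.2). Chondrocyte-like cells had 1.59 (1.15-2.15), 0.848 (0.591-1.18), 1.11 (0.929-1.31) and 1.80 (1.42-2.26) in order of stage. Adult osteoblast lineage-like cells had 1.07 (0.831-1.35). Antibody and transcript thus did not go together clearly within every class. The 33 positive E16.5 skeletal muscle-like cells had 49.1 CPM against 1.38 in the negative ones.

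Cells positive for both CD140a and Sca-1, a surface pair used to isolate mesenchymal progenitors, numbered 501, 355, 806 and 752 in order of stage. Their Pdgfra level was 125, 157, 200 and 211 CPM, against 146, 167, 179 and 128 in CD140a-positive Sca-1-negative cells. Adult cells that were CD140a-negative and Sca-1-positive still had 179 CPM (168-190) of Pdgfra, and they had the highest Pdgfb of any adult quadrant, 74.1 CPM (67.2-81.5).

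In the HP compartment Pdgfrb lacked a UMI in 12 of the 74 clusters, Pdgfa in 22, Pdgfb in 23, Pdgfc in 56 and Pdgfra in 62. The highest Pdgfrb level, 73.2 CPM (15.1-214), came from 3 UMIs in the unnamed adult cluster Stroma, whose 56 cells were led by Col2a1, Sparc and Cxcl12, so that the named classes are described instead. Mast-like cells had 20.3 CPM (19.0-21.8) at E16.5, 56.4 (49.4-64.1) in E18.5 Mast3 and 41.8 (35.7-48.7) in P0 Mast3. HSPC-like cells, the stem and early progenitor cells, had 13.3 CPM (11.8-15.0) at E18.5, 19.6 (17.9-21.3) among P0 cells and 26.2 (22.1-30.9) among adult cells, and no E16.5 cluster was named so. B lineage-like cells had at most 1.60 CPM and erythroid-like cells at most 3.64.

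T or NK-like cells had 34.4 CPM (32.6-36.4) of Pdgfrb at E16.5 and 4.54, 9.42 and 8.00 CPM from 5, 7 and 4 UMIs at the later stages. After thinning to 1000 UMIs, 3.05% (2.28-3.99) of the E16.5 cells had a Pdgfrb UMI, against 0 of 209 E16.5 B lineage-like cells, which allows up to 1.75%, at median depths of 21476.5 and 11537 UMIs. The highest of these clusters, TCell3, had 47.9 CPM, and the unnamed cluster TCell2 had 47.8. T or NK-like cells were 34.8% of E16.5 HP 2 and 3.04% of E16.5 HP 1, so that they came almost wholly from one library. Mast-like clusters came from both E16.5 libraries, with 19.2 and 18.0 CPM in Mast1, 25.9 and 19.2 in Mast2i, and 31.2 and 21.5 in Mast2ii.

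Pdgfrb lies next to Csf1r, the receptor of macrophage growth factors, with 15536 bases between the annotated genes in GRCm38. E18.5 cluster Mono2, which had the highest Csf1r level of any cluster, 1900 CPM, had 1 UMI of Pdgfrb. Other clusters with high Csf1r are not compared here, and any part of the neighbouring gene in the Pdgfrb counts was not tested.

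The HP clusters with the most Pdgfb differed by stage. E18.5 Mono2, an unnamed cluster of 80 cells with Sparc, Fcrls, P2ry12 and Trem2 among its leading genes, had 112 CPM (89.0-140). Osteoclast-like E18.5 DC2, 43 cells led by Ctsk, Acp5 and Mmp9, genes of bone resorption, had 82.8 (67.1-101). Monocyte or macrophage-like cells had 14.5 CPM (11.9-17.5) at E16.5 and 29.0 (23.3-35.8) at E18.5, and 0.175 (0.00442-0.972) from 1 UMI in the adult. Among adult classes, T or NK-like cells had 16.0 CPM (6.91-31.5) from 8 UMIs in 109 cells, and dendritic-like cells had 9.62 (4.40-18.3) from 9 UMIs. Both unnamed P0 clusters with the monocyte or macrophage list on top, Mono1 and Mono2, had 28.7 and 29.7 CPM. Mast-like cells had 0.150 to 0.765 CPM, and adult megakaryocyte-like cells, whose platelets carry the protein, had 3.75 (2.10-6.19).

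The 2 E16.5 HP libraries differed in Pdgfb, 7.16 CPM (5.82-8.70) against 0.501 (0.369-0.664). Monocyte or macrophage-like cells were 28.8% of the first and 2.99% of the second. Within cluster Mono/Mast the levels were 21.5 CPM (17.1-26.6) and 7.29 (4.80-10.6). The part of these cell shares in the difference between the libraries was not tested. Pdgfra was sparse in both libraries, with a UMI in 4 and 6 cells before thinning. UD2, 65 unnamed cells with Col3a1 and Dcn, genes of connective tissue, among those leading it, held 25 of the 32 E16.5 Pdgfra UMIs in 4 cells, 20 of them in 1 cell, and the other 7 UMIs lay in HSPC1 and the Mast clusters. UD2 had the highest HP level of Pdgfa, 67.1 CPM (43.9-98.4).

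**Figure D5:**
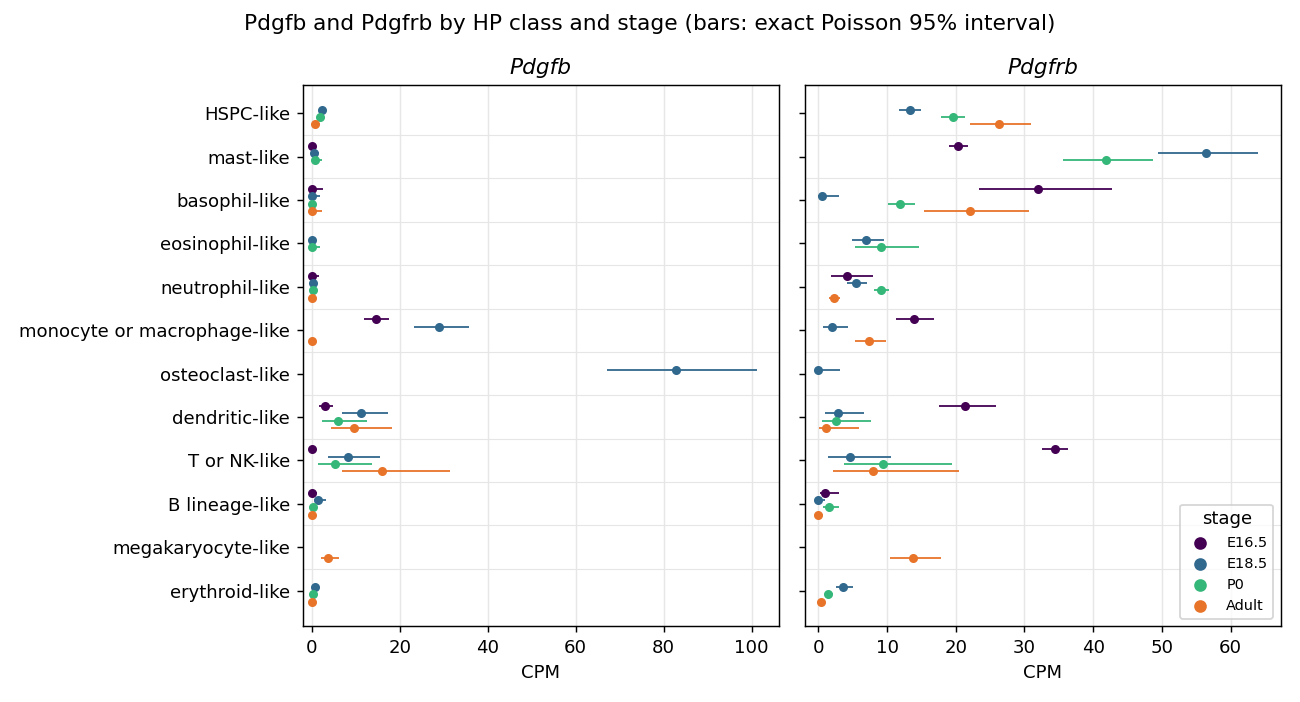
CPM (linear axes) of Pdgfb and Pdgfrb in the named HP classes, coloured by stage, with exact Poisson 95% intervals. Pdgfb is highest in osteoclast-like E18.5 cells (82.8), and Pdgfrb is highest in E18.5 and P0 mast-like cells (56.4 and 41.8) and in E16.5 T or NK-like cells (34.4).

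Between HP stages, each set against E16.5, the edgeR test called no PDGF gene. On simulated counts this test recovered 6% of 2-fold and 89% of 8-fold changes between Adult and E16.5 HP over 16114 genes. The simulated libraries shared a mean profile and a fixed dispersion, without the difference in makeup of the real E16.5 pair. For the members, the real SE of the Adult log2 difference ran from 0.587 for Pdgfrb to 2.19 for Pdgfra, so these recovery shares need not hold for them. For Pdgfrb the log2 differences of E18.5, P0 and Adult HP were -1.25, -0.94 and -1.65 (adjusted p = 0.816, 0.791 and 0.251). Over all genes 0.00621%, 0.292% and 2.35% were called, with 1047, 1368 and 2462 of 16114 genes at an unadjusted p under 0.05. By DESeq2 361, 561 and 1164 genes were called. One residual degree of freedom, from the E16.5 pair that differ in makeup, carries these tests.

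The wider pathway was followed in 35 further genes, all tested between compartments: 15 were higher in stroma, 7 lower and 13 not called, with a median log2 difference of 0.26. Over all genes 32.0% were higher and 25.8% lower, and the counts of the groups below stand against the same shares. Both further ligand and receptor-like genes were higher in stroma. Pdgfd, a ligand of the β receptor, stood at 2.02, 2.53, 3.21 and 6.76 CPM in stroma and at most 0.540 in HP (log2 difference 4.57, SE 0.564, adjusted p = 0.000667). Pdgfrl, a receptor-like protein without a kinase domain, stood at 69.4, 105, 125 and 184 CPM in stroma and at most 0.667 in HP (7.87, SE 0.220, adjusted p = 6.92e-06).

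Of 7 genes for processing and binding of the ligands, 5 were higher in stroma and 1 was lower. Plat, tissue plasminogen activator, had a log2 difference of 9.76 (SE 0.734, adjusted p = 8.31e-05), and Sparc, a matrix protein that binds PDGF, 9.51 (SE 1.11, adjusted p = 0.000539). St14, the protease matriptase, was lower (log2 difference -3.90, adjusted p = 0.00396). Of 21 adaptors and effectors 8 were higher and 4 lower, among them Grb2, the adaptor that links receptors to Ras (log2 difference -1.91, adjusted p = 0.000414). Of 5 negative regulators none was higher and 2 were lower. Of the 34 pathway genes tested between HP stages, none was called at any stage by edgeR. Over all 16114 genes 0.00621%, 0.292% and 2.35% were called at E18.5, P0 and in the adult, so that few or no calls among 34 genes is the background rate.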

How the data were processed

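The authors aligned 10x 3′ reads to mm10 with CellRanger 3.1.0 and merged, filtered and clustered cells in Seurat 3.1.5. The deposited mRNA and antibody matrices hold raw UMI counts per cell, and a deposited cell table gives library and cluster code. No cell was removed here and no doublet caller was run. The PDGF genes, the marker and pathway lists and the tests were chosen with earlier results of these data known.

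UMI counts were summed per library, class or cluster (Python 3.11.15, numpy 2.4.6, pandas 2.3.3, scipy 1.17.1). A cluster was named from the mean log2 enrichment of a marker list over the mean of the clusters of its compartment and stage. It stayed unnamed with a score under 1, a margin under 0.5, under 3 detected markers, leading genes of another list, low depth or over 30% of cells with more UMIs under the same barcode elsewhere. A cluster that passed these limits could also be left unnamed by hand, and class levels depend on these choices. Shares of cells with a UMI used cells thinned to 1000 UMIs, with exact Clopper-Pearson 95% intervals. Library sums were tested by edgeR 4.0.16 in R 4.3.3 (quasi-likelihood, TMM, filterByExpr, Benjamini-Hochberg at 0.05) with stage as covariate between compartments (4 residual degrees of freedom). DESeq2 1.42.0 was an alternative, and leaving out libraries, other scalings, filters and antibody levels were others. P-values measure the spread between libraries, which may be technical. In the compartment test this spread also holds how the difference of stroma from HP varied between stages, since only E16.5 HP had more than 1 library. On simulated counts the compartment test recovered 61% of 2-fold and 98% of 8-fold changes over 18407 genes. All simulated libraries shared a mean profile and a fixed dispersion, so these shares hold for that spread only. The genes named were the 5 members, Pdgfd and Pdgfrl, the 3 pathway genes with the largest called difference each way, the 3 most alike to each member, and leading genes of clusters, which with Ptprc, Col1a1 and Csf1r were chosen after their values were seen. Some genes that this rule names are not reported here.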

Additional observations from a re-analysis of the deposited data

Results flagged for a closer look

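Among 15 groups of 4 or 5 libraries examined for a sample that stands apart, 3 held one. Chance marks about 1 group in 20 where a group holds replicates. Here the libraries of a group differ in stage and recur between groups, so that rate does not apply. Pdgfb in Adult stroma, 11.2 CPM, stood apart from the 3 perinatal stromal libraries, with a gap of 0.976 of the whole range. Pdgfra in E16.5 HP 1, 1.65 CPM, stood apart from the other HP libraries, with a gap of 0.948 of the range, and 20 of the 23 UMIs behind it came from 1 cell of cluster UD2, with 4 cells of the library holding a UMI. The log2 ratio of Pdgfc between CD140a-positive and CD140a-negative cells was 0.53 in Adult stroma and below 0 in the other 3 libraries, with a gap of 0.883 of the range.

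CD140a antibody counts also occurred in HP cells, which no comparison used: 5 counts in E18.5 HP, 20 in P0 HP and 152 in Adult HP, out of 451977, 922313 and 829455 antibody counts. Both E16.5 HP libraries had 0.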

How the results depend on the processing

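No paired analysis was possible by replicate number, because only E16.5 HP carries such numbers. The compartment fit instead matched stroma and HP within each stage by a stage covariate, and without it 10449 genes were called, against 10640. Pdgfa, Pdgfc and Pdgfra kept their call between compartments under all 14 alternatives, and the Pdgfrb difference ran from 0.99 to 2.10 on the log2 scale. The size factors of DESeq2 in edgeR moved it to 1.63. The Pdgfb difference turned to -0.51 without Adult stroma and -0.53 without Adult HP, nearly the same check. It was highest, 1.23, without E16.5 HP 1. The genes called between compartments ran from 7566 to 11984.

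Between HP stages the counts of genes called at E18.5, against 1, were 35 with RLE scaling, 485 with no filter, 361 by DESeq2 and 66 without cells whose barcode had more UMIs elsewhere, an alternative chosen after seeing the data. At P0, against 47, they were 78, 713, 561 and 141 in the same order, and in the adult, against 378, they were 1515 with no filter and 1164 by DESeq2. The causes were not tested. Between the fits without E16.5 HP 1 and without E16.5 HP 2, which allow no test, log2 ratios to E16.5 changed sign: Pdgfa at E18.5 (0.42 and -0.40), Pdgfb at E18.5 (3.49 and -0.34), at P0 (2.13 and -1.71) and in the adult (0.43 and -3.40), and Pdgfra at E18.5 (0.20 and -3.93) and P0 (0.33 and -3.81).

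With the mean of per-cell CPM, 3 of 15 stromal steps passed 2-fold, with no share of all genes computed for that measure. On that scale Pdgfb from P0 to Adult was 8.08-fold. Pdgfa was 458 CPM in Adult P4, Pdgfb 312 in AECs, Pdgfra 374 in F8 and Pdgfrb 487 in CARs. With a pseudocount of 1, 9 of the 15 most alike genes were shared. The CD140a ratio of Pdgfra ran from 3.44 to 4.45 when 1 library was left out and from 3.61 to 3.94 under the other alternatives. Shares with a UMI depend on the thinning: Pdgfrb was detected in 57.4% of CARs at 2000 UMIs and in 90.0% unthinned.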

Other observations

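Adult pericyte or smooth muscle-like cells had higher levels of the ligands than those of P0: Pdgfc stood at 27.6 CPM (20.2-36.8) against 5.42 (3.26-8.47), a ratio of 5.10, Pdgfb at 2.88-fold and Pdgfa at 2.00-fold the P0 level. The receptor ratios were 1.26 (0.796-1.95) for Pdgfra and 1.22 (1.10-1.35) for Pdgfrb. Adult endothelial-like cells had 73.2 CPM (65.3-81.8) of Pdgfa and 20.7 (16.6-25.4) of Pdgfrb against 28.7 and 6.55 at P0, ratios of 2.56 and 3.15. Each rests on 1 library a stage and was not tested.

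In the unnamed P0 cluster LymP, led by Ccr9, Trbc2, Ly6d and Notch1, genes of early lymphoid cells, Pdgfrb stood at 32.4 CPM (28.0-37.2) in 388 cells. P0 T or NK-like cells had 9.42 (3.79-19.4) from 7 UMIs.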
